A study of Mus musculus with 21 samples.

Results

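The common tumour effect is the change between tumour and tumour-free tail keratinocytes that 3 mouse models of basal cell carcinoma (BCC) share on average. It was estimated from all 21 of the 21 libraries of the study, with the model as a block and tumour (BCC) against control (Con) as the single effect, so that each tumour library was set against the controls of its own model. Keratinocytes are the cells of the epidermis, and they were measured by bulk sequencing of polyA RNA. The groups were SmoM2 mice 29 days after tumour induction, Gnas-eKO mice after 42 days and PKI mice after 57 days, each with 3 Con and 4 BCC libraries, which makes 9 Con and 12 BCC libraries. Con mice had no tumours. The labels give no strain, age, induction agent or Cre driver, and whether Con mice carried part of the alleles is not stated there.

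BCC is the skin tumour best known for a switched-on Hedgehog pathway. When a Hedgehog ligand binds the receptor Patched, the membrane protein Smoothened is released from inhibition and GLI transcription factors turn on their targets, among them the genes of Patched and of GLI1 themselves. Protein kinase A, which cAMP activates downstream of the stimulatory G protein encoded by Gnas, keeps GLI factors in check. SmoM2 is an activated form of Smoothened, Gnas-eKO mice lack Gnas in the epidermis, and PKI is an inhibitor peptide of protein kinase A, so the models enter the pathway at different points. The common effect describes what these tumours held in common when read in the same tissue.

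Model, batch (A, B or C) and day coincide and cannot be told apart; every comparison of BCC with Con stayed inside a batch. Per the file headers, SmoM2 tumour animals are named with a prefix that SmoM2 controls do not have, and its meaning is not stated. Library totals ran from 16645858 to 22251132 counts, and 3 counts in a library corresponded to at most 0.189 CPM (CPM, the count scaled to a common library total after TMM). Keratinocyte markers were present in every library, with Krt5 from 7634 to 17853 CPM, Krt14 from 3859 to 15210, Krt10 from 4558 to 27026 and Trp63 from 603 to 1182. Among the Gnas-eKO BCC libraries, replicates 2 and 3 stood apart from replicates 1 and 4, by a chi-square per degree of freedom of 81.3 and 85.1 for replicate 2 and of 145 and 116 for replicate 3, against 25.6 between replicates 1 and 4. Without replicate 3, 6050 genes were called for the common effect and 4140 for a difference among models, beside 5490 and 2923 with all libraries. Replicate 2 lay nearest to Con among the 4 Gnas-eKO BCC libraries for all 9 of the most risen genes described below and for 9 of the 10 most fallen. In Gnas-eKO BCC the Gnas gene itself had 115.1, 89.5, 51.1 and 65.6 CPM, below the 178, 174 and 172 CPM of the Con libraries.

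In the fit of all 21 libraries, 17695 genes were tested and 5490 of them (31%) had an adjusted p under 0.05 by edgeR's quasi-likelihood test with Benjamini-Hochberg adjustment; such genes are here said to be called. Of the called genes, 2804 were higher in BCC (15.8% of those tested) and 2686 were lower (15.2%). The rises were larger than the falls. A change of at least 2-fold was found for 1222 of the risen genes (6.91% of those tested) and for 448 of the fallen genes (2.53%), and the median log2 fold change was 0.84 among the risen and −0.43 among the fallen. Without Gnas-eKO BCC replicate 2, 3041 genes were called higher and 2978 lower. Without the 7 SmoM2 libraries, whose BCC and Con animals differ in prefix, 3337 genes were called, 1861 higher and 1476 lower.

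The average was mostly, but not everywhere, an average of like signs. Of the 2804 genes called higher, 2462 (87.8%) were higher in each of the 3 models, and of the 2686 called lower, 2404 (89.5%) were lower in each. Of all genes tested, 43.1% had 1 sign in all 3 models, 21.2% higher and 21.9% lower. The same libraries chose the called genes, and unlike effects widen the residual spread of this fit. Like signs were thus favoured by the choice, and these shares are a description and no test. For 624 called genes at least 1 model went the other way. The most frequent pattern among them was a rise in SmoM2 and Gnas-eKO with a fall in PKI, in 221 genes, followed by falls in SmoM2 and Gnas-eKO with a rise in PKI in 150 genes. BCC and Con libraries did not overlap in any of the 3 models for 523 risen genes (2.96% of those tested) and 421 fallen genes (2.38%). In the same libraries with a separate effect per model, SmoM2 had 12.1% of genes called higher and 10.7% lower, Gnas-eKO had 8.89% and 6.05%, and PKI had 15.2% and 14.1%. A difference in the size of the tumour effect among models was called for 2923 genes (16.5% of those tested), and 939 of the genes called for the common effect (17.1%) were among these.

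Col27a1 (GRCm38 chromosome 4, 63214004 to 63334991, plus strand), a fibrillar collagen gene, had the largest rise by the rule used here for naming genes, which takes genes at a mean log2 CPM of 2 or more whose tumours and controls did not overlap in any model. It had 1.29, 0.975 and 4.00 CPM in SmoM2 Con against 124, 159.7, 119.96 and 163 in SmoM2 BCC. In Gnas-eKO it went from 1.064, 1.01 and 1.48 CPM to 135, 39.7, 46.5 and 118. In PKI it went from 2.18, 1.58 and 2.22 CPM to 37.7, 31.9, 52.4 and 55.2. All 12 BCC libraries thus lay above all 9 Con libraries, and the 4 PKI tumours and Gnas-eKO BCC replicates 2 and 3 were the lowest of the tumours. Its common rise was 5.56 on the log2 scale (SE 0.35, edgeR adjusted p 4.27e-09).

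Other genes of this group were Cntfr (5.49), which encodes the receptor subunit for ciliary neurotrophic factor, Cilp (5.35), a cartilage matrix gene, Pi15 (4.89), a secreted peptidase inhibitor gene, Prss35 (4.79), a serine protease gene, Foxi3 (4.70), a transcription factor gene of the hair placode, Atp6v1b1 (4.50), a subunit of the proton pump, Scnn1b (4.45), a subunit of the epithelial sodium channel, and Col14a1 (4.24), a fibril-associated collagen gene. Of Col27a1 and these 8 genes, Atp6v1b1 and Scnn1b also had a called difference among models with all libraries in the fit (edgeR adjusted p 0.0184 and 0.0429), and without Gnas-eKO BCC replicate 2 it was called for Pi15, Prss35 and Foxi3 too (0.00188, 0.0493 and 0.0222). By model (values by model are given in the order SmoM2, Gnas-eKO, PKI throughout), Atp6v1b1 rose by 5.40, 5.27 and 2.88 on the log2 scale. Counts of Pi15, Scnn1b and Col14a1 are uncertain where they overlap Gm28154, Cog7 and Gm18787, since it is not stated whether counting used the strand.

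Among the 10 most fallen genes, Mt4 (chromosome 8, 94137197 to 94139031, plus strand), the metallothionein of stratified epithelium, ranged from 458 to 703 CPM with a median of 627 over the 9 Con libraries. In the 12 BCC libraries it ranged from 30.0 to 370 CPM with a median of 119. The groups thus did not overlap over all libraries, which the naming rule required only within each model. Its common change was −2.16 (SE 0.31, edgeR adjusted p 3.27e-05). Gpnmb, which encodes a membrane glycoprotein known from pigment cells and macrophages, and Gsta2, which encodes a glutathione transferase, fell by 2.10 and 2.23 on the log2 scale. Adh6b, an alcohol dehydrogenase gene, had −3.26, Ptger3, a prostaglandin E receptor gene, −2.65, and Serpinb7, an epidermal protease inhibitor gene, −2.39. Fras1, whose product anchors epidermis to dermis, had −2.32, Clec2g, a lectin gene, −2.28, and Nptxr, the neuronal pentraxin receptor gene, −2.25. The lowest value, −3.86, was that of 2310079G19Rik on chromosome 16. With all libraries in the fit, Clec2g alone of these 10 had a called difference among models (edgeR adjusted p 0.00847), with a fall of 4.58 in SmoM2 against 1.39 in Gnas-eKO and 1.182 in PKI; it overlaps Gm15987 and Gm8778. Without Gnas-eKO BCC replicate 2 a difference was also called for Adh6b, Ptger3 and 2310079G19Rik (edgeR adjusted p 0.00042, 0.0186 and 0.0432), and the Gnas-eKO value of 2310079G19Rik went from −2.92 to −7.97.

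**Figure D1:**
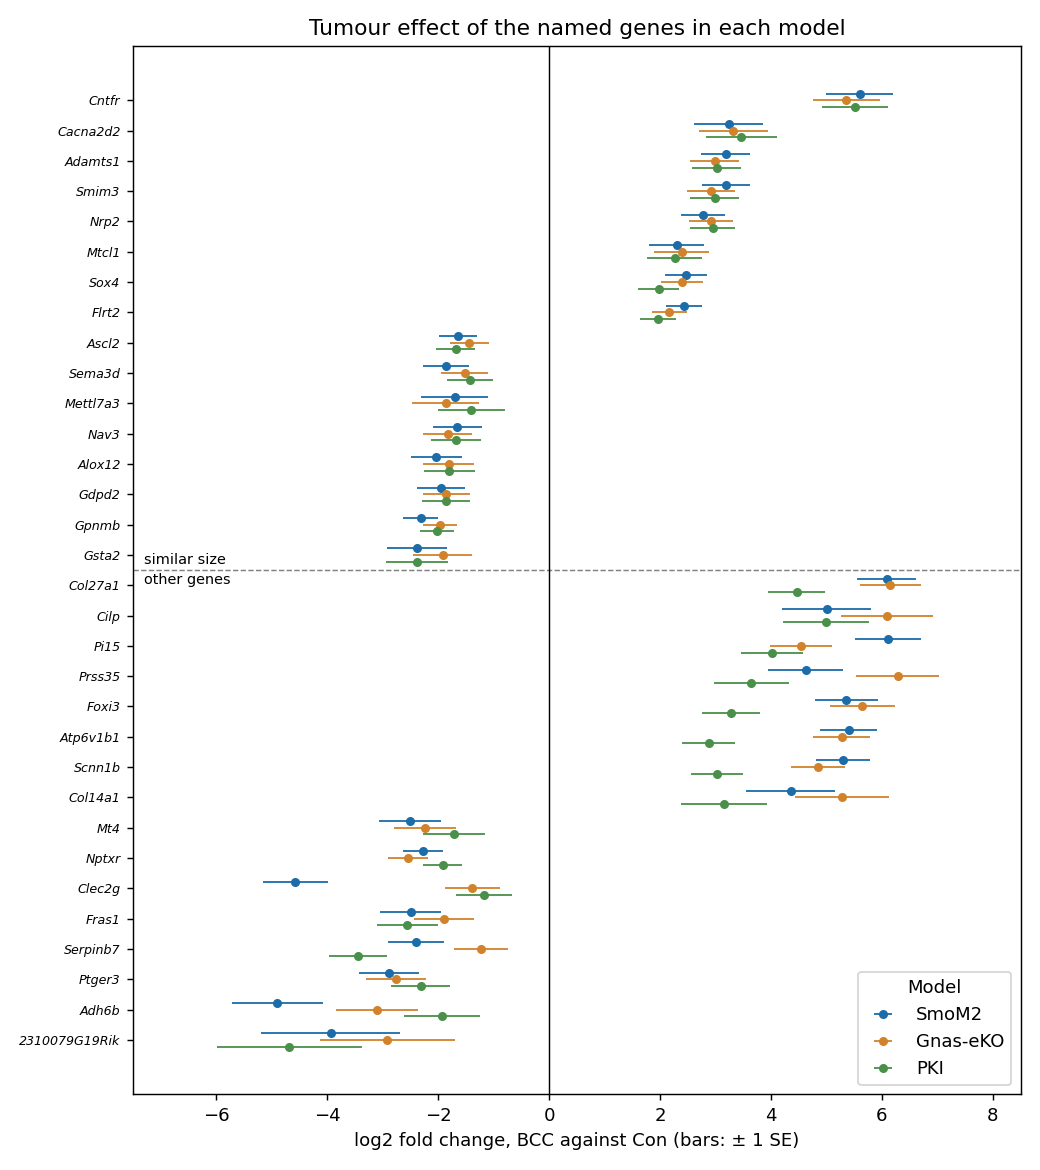
Log2 fold change of BCC against Con in SmoM2 (blue), Gnas-eKO (orange) and PKI (green) for the named genes, with bars of 1 SE, from the fit of all 21 libraries with separate model effects. The 3 points of a gene lie close together above the dashed line, where the rule chose them to, while below it Clec2g has −4.58 in SmoM2 against −1.39 in Gnas-eKO, and Col27a1 has 6.09 in SmoM2 against 4.46 in PKI.

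Since the 3 models share no libraries, a model left out of the choice of genes shows how far the effect carries over. Genes called in the fit of SmoM2 and Gnas-eKO, SmoM2 and PKI, or Gnas-eKO and PKI (14 libraries each) were looked up in a separate fit of the third model (7 libraries). In SmoM2, 1459 of 1616 genes called higher in the other 2 models were also higher (90.3%, against 49.8% of all genes tested in both fits), and 992 of them were called higher (61.4%, against 15.9%). Of 1455 genes called lower in the others, 1302 were lower in SmoM2 (89.5%, against 50.2%) and 827 were called so (56.8%, against 13.7%). Opposite calls numbered 6 and 13.

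In Gnas-eKO the direction carried over nearly as often, but few genes passed the test of its 7 libraries alone. Of 2379 genes called higher in SmoM2 and PKI, 2057 were higher in Gnas-eKO (86.5%, against 52.3%) and 205 were called (8.62%, against 1.47%). Of 2662 called lower, 2185 were lower (82.1%, against 47.7%) and 19 were called (0.714%, against 0.166%), with 0 opposite calls in either direction by edgeR. At an unadjusted p under 0.05, 1094 and 679 moved the same way and 13 and 33 the opposite way. DESeq2, run on these libraries after the edgeR counts were seen, called 766 and 284 the same way and 3 and 9 the opposite way. These counts rested on single libraries. Without Gnas-eKO BCC replicate 2 they were 807 and 536, and without Gnas-eKO Con replicate 1 or Con replicate 2 they were 0 and 0 by edgeR, with 890 and 425, or 865 and 410, the same way at an unadjusted p under 0.05. Shares over all genes were not computed for the unadjusted, DESeq2 and left-out-library counts. These counts alone therefore do not separate carry-over from a general change in the number of calls.

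In PKI the shares with the same direction were the lowest of the 3 models, while the shares called were lower still in Gnas-eKO. Of 2334 genes called higher in SmoM2 and Gnas-eKO, 1593 were higher in PKI (68.3%, against 49.3%) and 891 were called (38.2%, against 18%), while 179 (7.67%) were called lower. Of 2055 called lower, 1474 were lower in PKI (71.7%, against 50.7%), 790 were called (38.4%, against 16%) and 162 (7.88%) were called higher. The shares of the 3 models rest on gene lists of different make-up, and the difference between them was not tested.

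**Figure D2:**
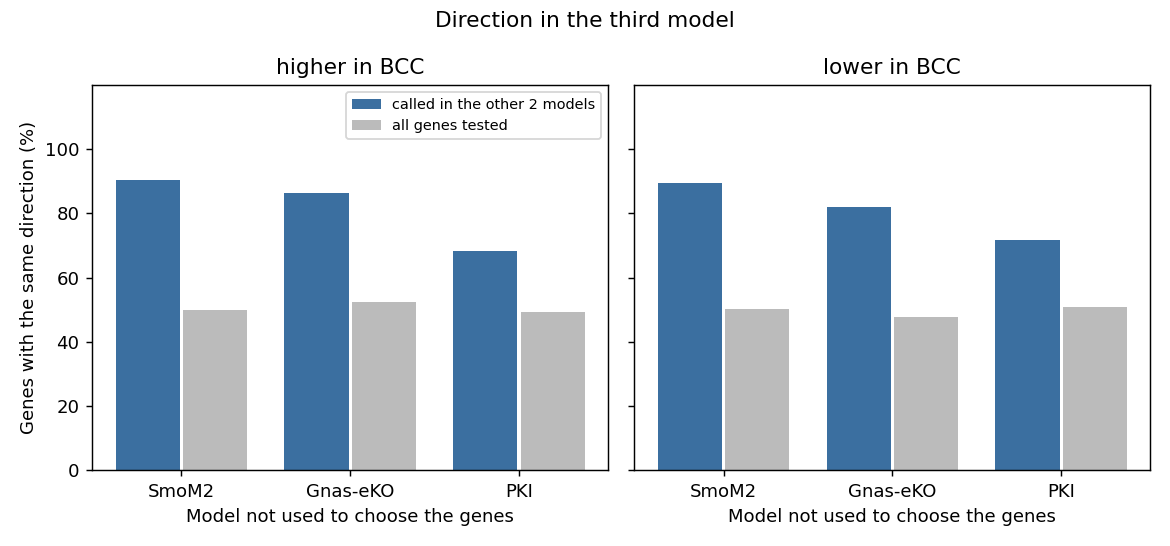
Share of genes, in percent, that had the same direction in a model that was not used to choose them (blue bars), for genes called higher (left) or lower (right) in the other 2 models, beside the share of all genes tested with that direction (grey bars). The blue bars stand at 90.3%, 86.5% and 68.3% on the left and at 89.5%, 82.1% and 71.7% on the right, each above its grey bar.

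Genes of similar size were defined as called in the common fit, changed in the same direction by at least 2-fold in each model, and with no more than 0.5 between the highest and the lowest of the 3 log2 fold changes. The rule uses the measured effects, so what follows on these genes is a description and no test. It took 111 genes (0.627% of those tested), 72 higher and 39 lower in BCC. Another 442 risen and 135 fallen genes changed at least 2-fold in every model with estimates more than 0.5 apart. A difference among models was called by edgeR for 56 and 3 of them, beside 16.5% of all genes tested. For most of these genes no difference was thus called. Of the 111 genes, 99 were protein coding, 59 reached a mean log2 CPM of 2 and 70 had no overlap between BCC and Con in any model. Their median absolute log2 fold change was 1.49, and their median mean log2 CPM was 2.27, against 4.35 for all called genes.

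Likeness of the estimates is not equality, and the intervals of the differences say how much room is left. The widest 95% interval of a difference between 2 models extended, at the median of the 111 genes, 1.21 log2 units to either side of its estimate. For 11 genes all 3 pairwise intervals lay within 1 log2 unit of 0. They were Scarb1, Marcksl1, Nipsnap1, Fam171a2, Ctsz, Denn2b, Irak3, Porcn, Plat and Gm9844, which were higher in BCC, and Antxr1, which was lower. Counts of Fam171a2, Ctsz, Irak3 and Antxr1 are uncertain because each overlaps another gene or genes. Scarb1, the receptor gene for high-density lipoprotein (chromosome 5, 125277087 to 125341094, minus strand), had log2 fold changes of 2.11, 1.80 and 2.12 by model. Its difference between Gnas-eKO and SmoM2 had an interval of −0.90 to 0.28, and that between PKI and Gnas-eKO of −0.27 to 0.92. Porcn, which encodes the acyltransferase that lipid-modifies Wnt proteins, had 1.28, 1.34 and 1.27. For Nipsnap1 the interval of PKI minus SmoM2, −0.94 to −0.04, did not include 0. The intervals are not adjusted for the number of genes, and this difference was not called (edgeR adjusted p 0.127). Scarb1, Porcn and Nipsnap1 were chosen after their values were seen.

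Membership was sensitive to single libraries. When each library was left out in turn, between 69 and 101 of the 111 genes met the rule, and 9 met it in all 21 fits, namely Arhgef17, Ctsz, Elmo1, Irak3, Marcksl1, Nrep, Nrp2, Porcn and Smim3. The fewest, 69, were kept without Gnas-eKO BCC replicate 2, where 133 genes met the rule in all. At the limit, Sox4 (difference of 0.49 between highest and lowest) and Ankrd23 (0.50) were just inside, and Arhgap31 (0.50) and Rnase2b (0.51) just outside.

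Cntfr combined one of the largest rises with close estimates. It lies on chromosome 4 (41657498 to 41697089, minus strand). In SmoM2 it had 1.84, 2.47 and 5.90 CPM in Con and 182, 169, 152 and 151 CPM in BCC. In Gnas-eKO it had 2.99, 2.12 and 3.17 CPM in Con and 176, 25.7, 79.98 and 174 CPM in BCC. In PKI it had 4.76, 2.84 and 3.48 CPM in Con and 214, 191, 119 and 160 CPM in BCC. Every tumour library was above every control, and Gnas-eKO BCC replicate 2 was the lowest tumour. The log2 fold changes were 5.60, 5.36 and 5.51, and the interval of Gnas-eKO minus SmoM2 ran from −1.82 to 1.35, so a difference of more than 2-fold in either direction would still lie in it.

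Nrp2, the gene of the neuropilin-2 receptor for semaphorins and vascular growth factors (chromosome 1, 62703285 to 62818695, plus strand), had 27.1, 28.2 and 50.7 CPM in SmoM2 Con and 224, 252, 251 and 238 in SmoM2 BCC. It had 34.2, 28.9 and 38.3 against 408, 101.4, 153 and 359 CPM in Gnas-eKO, and 48.9, 24.9 and 33.8 against 261, 255, 273 and 321 CPM in PKI. The tumours lay above the controls in each model, by 2.77, 2.92 and 2.95 on the log2 scale, and the interval of PKI minus SmoM2 was −0.90 to 1.25. Nrp2 overlaps Gm37121. Adamts1, a secreted metalloprotease gene that cuts proteoglycans (chromosome 16, 85793827 to 85803113, minus strand), went from a median of 12.7 CPM over the 9 Con libraries (11.1 to 24.4) to 114 over the 12 BCC libraries (36.0 to 234). Its 3 log2 fold changes were 3.18, 2.98 and 3.02. Cacna2d2, a calcium channel subunit gene, had 3.24, 3.32 and 3.47, and Smim3, a small membrane protein gene, had 3.19, 2.91 and 2.98. Mtcl1, a gene for a microtubule crosslinker, had 2.30, 2.39 and 2.26 and overlaps Gm4705.

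Sox4, a transcription factor gene of developing epithelia (chromosome 13, 28948919 to 28953713, minus strand), ranged from 32.2 to 52.6 CPM over Con and from 82.3 to 337 CPM over BCC. Its log2 fold changes were 2.46, 2.39 and 1.97, and it met the rule in 12 of the 21 fits. Flrt2 (chromosome 12, 95692226 to 95785215, plus strand), whose product is a membrane adhesion and guidance protein, ranged from 8.44 to 11.9 CPM over Con and from 19.6 to 79.7 CPM over BCC. Both genes were free of overlap between the arms, and the lowest tumour value of each came from Gnas-eKO BCC replicate 2. Flrt2 overlaps Gm48014, and its 3 log2 fold changes were 2.44, 2.17 and 1.96.

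The promoters of 2 of these genes are shown because GLI factors are known to bind GACCACCCA, and because the risen genes of similar size move together in models of the GLI pathway. Each is the stretch of 250 bases before a RefSeq transcription start on GRCm38.p6, 5′ to 3′ on the gene's strand. The Cntfr stretch (chr4:41696038-41696287, minus strand) belongs to 1 of the 6 starts listed for that gene and held neither the full motif nor its core CCACCCA on either strand. The Flrt2 stretch (chr12:95691976-95692225, plus strand) was picked after the search because it holds the core, printed in capitals.
Cntfr: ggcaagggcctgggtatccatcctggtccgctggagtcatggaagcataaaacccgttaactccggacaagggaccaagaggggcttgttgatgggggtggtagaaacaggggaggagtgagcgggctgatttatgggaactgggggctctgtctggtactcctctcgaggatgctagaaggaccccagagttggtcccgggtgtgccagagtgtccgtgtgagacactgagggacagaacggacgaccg
Flrt2: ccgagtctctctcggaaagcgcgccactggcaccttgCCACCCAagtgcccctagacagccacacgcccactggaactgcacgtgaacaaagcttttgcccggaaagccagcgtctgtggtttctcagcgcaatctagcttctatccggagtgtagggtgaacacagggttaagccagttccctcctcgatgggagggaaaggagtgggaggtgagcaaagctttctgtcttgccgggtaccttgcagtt

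Windows of 300 bases around the start, which also take in the 50 bases after it, were searched on both strands; every GACCACCCA also counts as a CCACCCA. Of 32851 windows in the table, 0.253% held GACCACCCA and 9.30% held CCACCCA. Promoters were found by symbol for 56 of the 72 risen and 27 of the 39 fallen genes of similar size. The full motif was in 0 of either set, and the core was in 8 of the 56 (14.3%) and 5 of the 27 (18.5%), beside 11.8% of the 11671 tested genes with a promoter in the table. A match is a description of letters in a window, and its absence says only that the letters are not there.

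Among the fallen genes of similar size, Gpnmb (chromosome 6, 49036546 to 49070929, plus strand) had 234, 212 and 208 CPM in SmoM2 Con against 43.1, 38.9, 51.3 and 41.5 in SmoM2 BCC. In Gnas-eKO it had 190, 188 and 202 CPM against 23.04, 80.9, 40.7 and 54.0, and in PKI 145, 208 and 288 CPM against 43.9, 43.2, 78.1 and 44.5. No tumour library reached its controls, and the log2 fold changes were −2.32, −1.96 and −2.03. Gpnmb is also a marker of pigment cells: without Gpnmb itself, the other 9 melanocyte markers tested summed to 129 to 227 CPM in Con (median 181) and 85.4 to 229.9 CPM in BCC (median 142). These overlapped over all models but not in PKI, where Con had 181, 173 and 225 CPM and BCC 123, 85.4, 136 and 105 CPM. Tyr and Oca2 were called lower and the other 7 were not called, and the part of melanocytes in the fall was not tested.

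Gdpd2, a glycerophosphodiester phosphodiesterase gene on chromosome X (100729873 to 100738895, plus strand), gave the closest estimates among the fallen genes named, but this rested on 1 library. It had 140, 169 and 111 CPM in SmoM2 Con and 36.2, 35.2, 35.2 and 38.9 CPM in SmoM2 BCC. The values were 110, 120 and 166 CPM against 20.3, 87.5, 19.2 and 19.3 CPM in Gnas-eKO, and 121, 172 and 222 CPM against 35.3, 40.0, 67.0 and 46.7 CPM in PKI. Tumours lay below controls in each model, with replicate 2 of Gnas-eKO BCC closest to them. The log2 fold changes were −1.94, −1.85 and −1.86; without that library the Gnas-eKO value was −2.75, and the gene no longer met the rule. Of the 8 fallen genes named for similar size, 6 were lost in that way, namely Gdpd2, Alox12, Gsta2, Nav3, Mettl7a3 and Sema3d, and of the 8 risen ones 1, Sox4. With all libraries, Alox12, a lipoxygenase gene of the epidermis, had −2.03, −1.81 and −1.80, and Gsta2 had −2.38, −1.92 and −2.39. Gdpd2, Alox12 and Nav3 each met the rule in 20 of the 21 fits that left out 1 library, and Gsta2 in 7. In the fit without Gnas-eKO BCC replicate 2, the Gnas-eKO values were −2.85 for Alox12, −3.14 for Gsta2 and −3.42 for Mettl7a3, and for Mettl7a3 the difference among models was then called (edgeR adjusted p 0.000992). Nav3, a neuron navigator gene, had −1.66, −1.83 and −1.68, and Mettl7a3, which has close copies and so an uncertain count, had −1.70, −1.87 and −1.40. Sema3d, a secreted semaphorin gene overlapping Gm8925, had −1.86, −1.52 and −1.43, and Ascl2, a transcription factor gene, −1.64, −1.44 and −1.69.

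**Figure D3:**
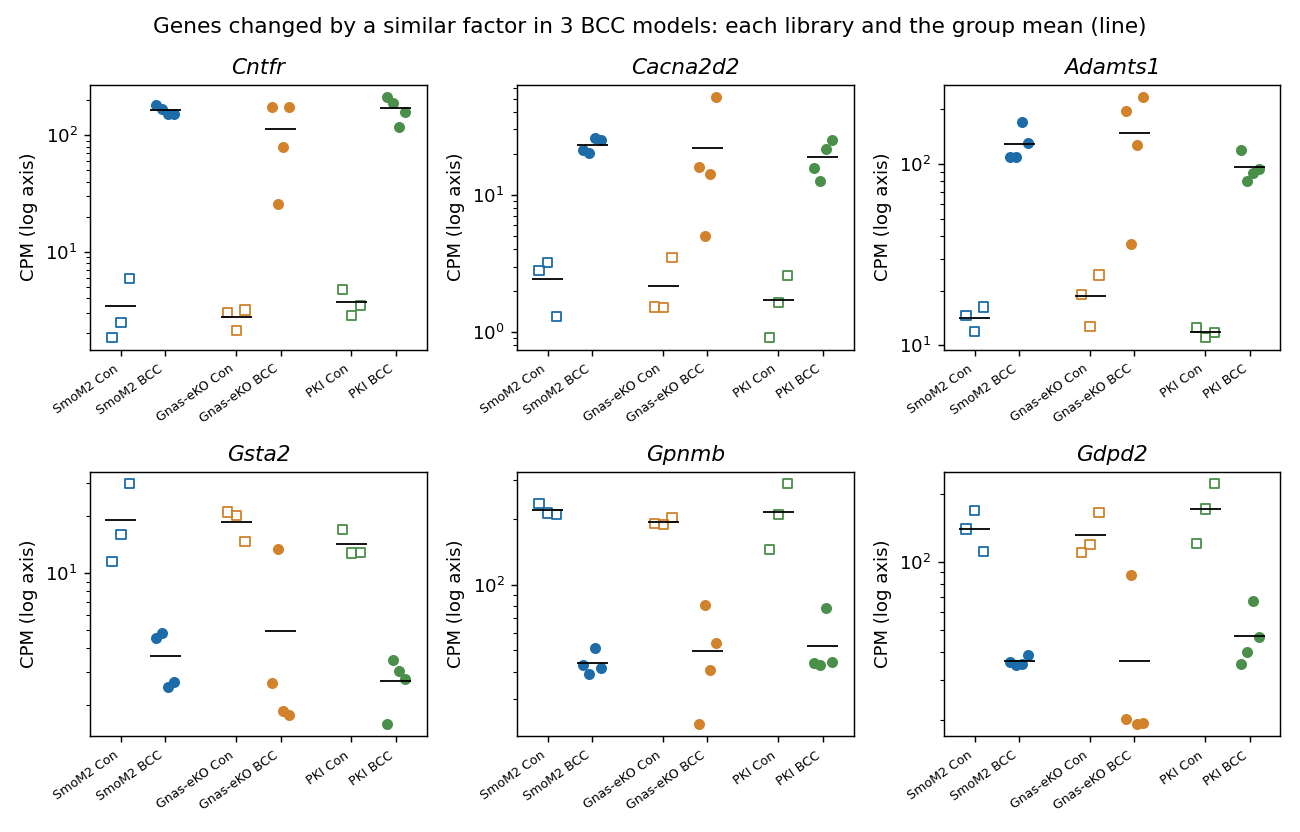
CPM on a log axis in each of the 21 libraries for the 3 most risen (top) and 3 most fallen (bottom) genes of similar size that reached a mean log2 CPM of 2, by model and arm, with open squares for Con, filled circles for BCC and a line at the arithmetic mean of the group. For Cntfr the 12 tumours lie between 25.7 and 214 CPM and the 9 controls between 1.84 and 5.90, and the Gnas-eKO tumours spread most.

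Of 22 Hedgehog pathway and target genes tested, 13 were called higher and 1, the cyclin gene Ccnd2, lower, beside 15.8% and 15.2% of all genes; 14 had a called difference among models, and for Gli1 it was not called with all libraries (edgeR adjusted p 0.256) but was without Gnas-eKO BCC replicate 2 (0.00631). Their median log2 fold change was 0.63, against 0.0015 over all genes tested, with medians of 1.05, 0.88 and 0.09 by model. Their summed level overlapped between the arms in PKI, at 1836 to 1989 CPM in Con and 1847 to 2403 CPM in BCC. Ptch1, the gene of the main Patched receptor (chromosome 13, 63508328 to 63573598, minus strand), had 30.0 to 42.9 CPM over Con and 209 to 1062 CPM over BCC. It rose by 3.92 in common (SE 0.28, edgeR adjusted p 2.08e-08). By model it rose by 4.69, 4.13 and 2.98, and that difference was called (edgeR adjusted p 0.0372). Gli2, the main activating GLI factor in skin, rose by 2.45 (SE 0.26, edgeR adjusted p 1.12e-06), with 3.52, 2.59 and 1.30 by model (difference among models, edgeR adjusted p 0.000279). Gli1, the GLI gene that is itself a target, had 4.12 (SE 0.48, edgeR adjusted p 4.44e-06); its value of 9.65 CPM in Gnas-eKO BCC replicate 2 lay inside the Con range of 4.75 to 16.55. Mycn, a growth regulator under Hedgehog control, had 3.69, and Smo itself 0.95 (edgeR adjusted p 4.33e-06) with 1.53, 0.84 and 0.52 by model. Ptch1, Gli1 and Smo overlap A930032L01Rik, Arhgap9 and Gm13717. Gnas had no called common effect (log2 fold change −0.09, SE 0.20, edgeR adjusted p 0.774) with 0.66, −1.12 and 0.24 by model.

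Genes of the hair follicle bud also rose more often than they fell, with 15 of 26 called higher and 2, Wnt10a and Wnt10b, lower, and a median of 0.43. Edar, the ectodysplasin receptor gene of hair placodes (log2 fold changes 2.05, 1.88 and 2.13), and Runx1, a transcription factor gene (1.46, 1.57 and 1.20), were of similar size in the 3 models. Foxi3 (4.70) and Lhx2 (2.204), a transcription factor gene of follicle stem cells, rose by more in SmoM2 and Gnas-eKO than in PKI by their estimates, and the difference was called without Gnas-eKO BCC replicate 2 (edgeR adjusted p 0.0222 and 0.0243) but not with all libraries (0.0609 and 0.196). Lgr5, a stem cell marker gene, rose by 2.98, 2.86 and 0.48 with a called difference (edgeR adjusted p 0.00126). Of 16 Wnt feedback genes, 4 were called higher (Lef1, Znrf3, Lgr5 and Tcf7) and 2 lower (Axin2 and Rnf43), with a median of 0.20; both counts are few, and the lower one is near the 15.2% of all genes called lower (15.8% were called higher). Lef1, a Wnt effector gene, rose by 1.41, 1.09 and 3.07, and Axin2, the usual reporter of Wnt activity, had −0.58, −0.18 and −1.14. In the fit without Gnas-eKO BCC replicate 2, a difference among models was called for both (edgeR adjusted p 0.0393 and 0.0476). Counts of Lgr5, Lef1, Tcf7 and Axin2 are uncertain because each overlaps another gene.

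Of 29 suprabasal and terminal differentiation genes, 20 were called lower and 1, Rptn, a gene of a cornified envelope protein, was called higher, beside 15.2% and 15.8% of all genes. The median was −0.77, with −1.16, −0.25 and −0.63 by model, and 10 had a called difference among models. Krt2, a keratin of the upper layers of tail skin, ranged from 12655 to 20308 CPM in Con and from 621 to 12460 in BCC, and fell by 1.87 (SE 0.36, edgeR adjusted p 0.000522). Lce1a1 and Lce1b, which encode late cornified envelope proteins and are near copies, were called lower on average (−1.54 and −1.58) although their estimates in Gnas-eKO were 0.89 and 0.80. Their calls were lost in 16 and 11 of 32 alternative fits, among them those without the SmoM2 or the PKI libraries. Of 20 barrier lipid genes, 11 were called lower, among them the lipoxygenase genes Aloxe3 (−1.30) and Alox12b (−1.23) and the acyltransferase gene Dgat2 (−1.05), and 1 higher, the desaturase gene Fads2 (2.58), with a median of −0.48. Without the SmoM2 libraries 10 of the 29 differentiation genes were called lower, beside 1476 of all 17254 genes tested.

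Of 18 basal keratinocyte genes, 9 were called lower and 2 higher (Dsg3 and Cdh3), where all genes had 15.2% and 15.8%, with a median of −0.31 and medians of −0.015, −0.25 and −0.39 by model. Without the PKI libraries 6 were called lower, beside 2089 of all 17151 genes tested. Without the SmoM2 libraries 6 were called lower, beside 1476 of all 17254 genes tested. Col17a1, a hemidesmosome collagen gene, went from a median of 3632 CPM in Con to 2325 in BCC, a change of −0.76 on the log2 scale (SE 0.12, edgeR adjusted p 9.52e-05). Krt14, the basal keratin gene, showed an average that hid a difference, with −1.22, −1.20 and −0.01 by model (difference among models, edgeR adjusted p 0.0292). Sox6 passed by little (−0.97, edgeR adjusted p 0.0449) and was lost in 20 of 32 alternative fits.

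Proliferation genes had almost no common effect but differed among models. Of 23, 1 (Foxm1, a transcription factor gene of the cell cycle, 0.33, edgeR adjusted p 0.0375) was called higher and 0 lower by edgeR, with the same counts at an unadjusted p under 0.05 and by DESeq2, while all 23 had a called difference among models. Over all genes the shares were 15.8% higher, 15.2% lower and 16.5% with a difference. By model, SmoM2 had a median log2 fold change of −0.12, Gnas-eKO of −0.35 and PKI of 0.83. Foxm1 was lost in 14 of 32 alternative fits. Without the PKI libraries Foxm1 was not called, and Birc5, Rrm2 and Ube2c were called lower.

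Of 31 extracellular matrix genes, 21 were called higher and 4 lower (Col7a1, Col16a1, Sparc and Thbs2), where 15.8% and 15.2% of all genes were, with a median of 1.35 and medians of 1.45, 1.81 and 0.43 by model. Their summed level did not separate the arms in PKI, with 2836 to 3418 CPM in Con and 2816 to 3583 CPM in BCC. Dcn, a small proteoglycan gene, ranged from 11.1 to 28.3 CPM in Con and from 56.3 to 569 CPM in BCC, and rose by 3.55 (SE 0.43, edgeR adjusted p 6.81e-06); its highest value came from Gnas-eKO BCC replicate 2. Vcan, a large proteoglycan gene overlapping Gm4117, rose by 4.24, 5.40 and 1.12 (difference among models, edgeR adjusted p 0.0127). Of 13 fibroblast and dermal papilla markers, several of them also in the matrix list, 8 were called higher and 1, Thy1, lower. Without the PKI libraries 5 of these markers were called higher, beside 2565 of all 17151 genes tested. The 13 markers summed to 53.8 to 197 CPM in Con and 158 to 709 CPM in BCC. Twist2 was at 0 to 0.101 CPM and Lum at 0 to 0.487 CPM in Con. Endothelial and mural markers summed to 1.89 to 5.17 CPM in Con and 4.61 to 13.9 CPM in BCC, with 5 of 6 called higher. In bulk RNA a change in the number of cells of a type and a change in RNA per cell cannot be told apart, and the part of these cells in the rise of matrix genes was not tested.

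Leukocyte markers were called higher for 10 of 18 and lower for 2, among them Kit (15.8% and 15.2% over all genes), with a median of 1.00 and medians of 0.16, 0.52 and 2.23 by model. Their sum was 54.8 to 202 CPM in Con and 220 to 4256 CPM in BCC. S100a8 and S100a9, genes of neutrophil proteins that stressed keratinocytes also make, gave 2.27% to 50.7% of that sum in Con (median 6.86%) and 24.05% to 92.1% in BCC (median 81.7%). The other 16 markers summed to 53.5 to 162 CPM in Con and 75.4 to 693 CPM in BCC. These overlapped over all models but not in PKI, where Con had 162, 65.3 and 53.5 CPM and BCC 693, 461, 368 and 343 CPM. S100a8 ranged from 0.379 to 42.3 CPM in Con and from 21.9 to 1579 CPM in BCC, with a common rise of 4.92 (SE 0.92, edgeR adjusted p 0.000483). Without PKI, 4 of 16 markers tested were called higher, beside 2565 of all 17151 genes tested. Lyz2 and Cd4, defining markers of macrophages and helper T cells, had Con medians of 0.216 and 0.152 CPM and BCC medians of 1.91 and 0.761 CPM, near or below the level of 3 counts in Con.

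Of 23 neuronal and axon guidance genes, 10 were called higher and 3 lower (Sema3f, Nrp1 and Unc5b), beside 15.8% and 15.2% of all genes tested, with a median of 0.19. The share called lower was thus near that of all genes. Netrin-1 (Ntn1) rose by 4.11 (SE 0.43, edgeR adjusted p 7.21e-07) from 0.189 to 0.912 CPM in Con to 0.965 to 20.8 CPM in BCC, and Slit1, a ligand of Robo receptors, by 2.42. The 2 neuropilins went opposite ways: Nrp2 rose by 2.88 (SE 0.22), while Nrp1 fell from a median of 6.77 to 1.64 CPM, by 1.80 (SE 0.30). Of 12 sebocyte markers 1 was called higher and 2 lower, and of 5 Schwann and muscle markers 1 and 1. Of 10 melanocyte markers 3 were called lower, and 5 without Gnas-eKO BCC replicate 2, where 2978 of all genes were. Without the SmoM2 libraries 1, Gpnmb, was called lower, beside 1476 of all 17254 genes tested. Without the PKI libraries Gpnmb was called lower and Mitf higher, beside 2089 and 2565 of all 17151 genes tested. Among 12 dissociation and stress genes 1 was called higher (Egr1, 1.14) and 2 lower (Hspb1, −0.78, and Hspa1a, −0.30), shares near or below those of all genes. Hspa1a was lost in 9 of 32 alternative fits and Egr1 in 2.

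**Figure D4:**
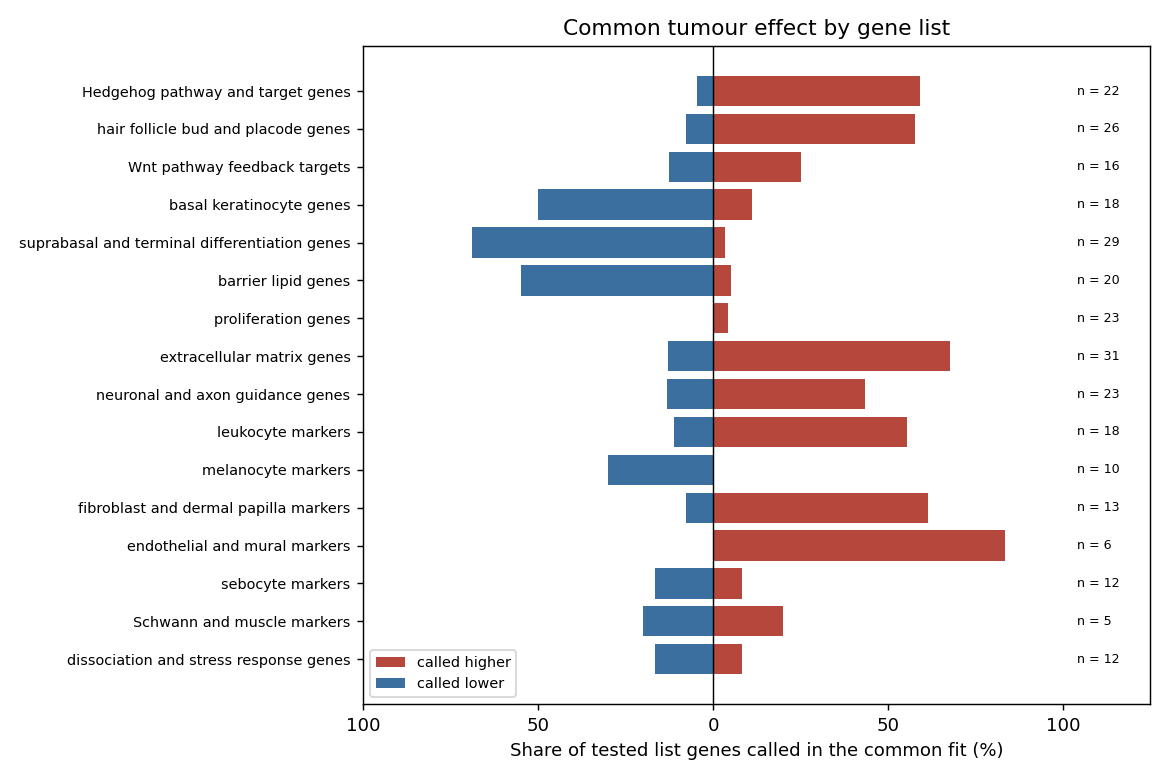
Share of the tested genes of each list, in percent, called higher (red, to the right) or lower (blue, to the left) in BCC in the fit of all 21 libraries, with the number tested at the right. Matrix, Hedgehog and hair follicle genes lean to the right (21 of 31, 13 of 22 and 15 of 26 called higher), as do endothelial and mural (5 of 6), fibroblast (8 of 13) and leukocyte (10 of 18) markers, and differentiation and barrier lipid genes to the left (20 of 29 and 11 of 20 called lower).

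Krt6b was among the 4 called genes whose estimates were least alike. Krt6b, a keratin gene of wound and hyperproliferative epidermis, had 189, 96.2 and 79.6 CPM in SmoM2 Con and 110, 64.5, 518 and 294 in SmoM2 BCC, which overlap. In PKI it had 5.07, 8.59 and 4.93 CPM in Con against 4140, 3022, 1302 and 1716 CPM in BCC. SmoM2 had a log2 fold change of 1.02, Gnas-eKO of 1.83 and PKI of 8.69, and the average of 2.67 (SE 0.92, edgeR adjusted p 0.0344) was lost in 10 of 32 alternative fits. Krt6b overlaps Gm44383 and has a close copy among the keratins, so its count is uncertain. The others by this rule were 2610528A11Rik (1.10, 1.57 and 6.67) and the chromosome 16 genes Krtap13 (−4.37, −1.56 and −7.78) and 2310057N15Rik (−4.39, −1.64 and −7.36). For the last pair no difference among models was called (edgeR adjusted p 0.113 and 0.143). Their Gnas-eKO values rested on BCC replicate 2, at 26.8 and 31.1 CPM against at most 0.692 and 1.48 CPM in the other 3 tumours, and without it they were −5.86 and −5.28. Krtap13 belongs to a family of similar hair keratin-associated genes, so its count is uncertain.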

How the data were processed

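Per the submitters' processing notes the reads were handled with bcl2fastq 2.20, cutadapt 1.18, STAR 2.7.0f and Partek, with mm10 as the genome; the role of each and whether counting used the strand are not given in the sources used here. The authors deposited estimated counts per gene (23713 genes, 33.1% of values not whole), and a second table of normalized signal that the authors made from them, used only for alternatives. Gene ends are given 1 base below the deposited ones. Counts were rounded, filtered with filterByExpr by the 6 groups, scaled by TMM and given to the robust quasi-likelihood test of edgeR 4.0.16 (R 4.3.3) (model plus arm for the common effect, 6 group means for effects by model and their differences). SE is the absolute log2 fold change over the square root of F. Scripts were tested on simulated data. Replicates all differed by more than sampling noise (lowest chi-square per degree of freedom 8.63). The labels give replicates as separate samples. In the fit by 6 group means, p-values measure only the spread between replicates. In fits of model plus arm, the residual spread also holds differences in tumour effect among models. Floors of 3 counts cover counting error only. Same-numbered libraries did not deviate together, so no pairing was used.

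At a mean log2 CPM of 2 or more, the text names the 10 highest and 10 lowest changes among called genes without overlap in any model. At the same level it names the 8 highest and 8 lowest genes of similar size, those nearest the limit of 0.5, and the 4 called genes least alike. At any level it names up to 4 called members of each gene list, and Ptch1, Gli1, Gli2, Smo and Gnas. Members, lists and rules were chosen with earlier results of these data known. Alternatives were DESeq2 1.42.0, limma 3.58.1 on log2 of the authors' signal, no filter, other scaling, sex as a covariate, the replicate block, and leaving out each library or model. Results for 2 of the genes so chosen or counted are not reported here.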

Additional observations from a re-analysis of the deposited data

Results flagged for a closer look

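Among 132 pairs of a named gene and a BCC group of 4 libraries, 16 had 1 library that stood far from the other 3 by Dixon's 95% criterion. The criterion's rate of about 1 group in 20 holds for independent normal values. It is no benchmark for the 132 pairs, drawn from the same 12 BCC libraries, or for the 16 flagged. Of these, 11 were Gnas-eKO BCC replicate 2, which lay on the side of Con in each: 2310057N15Rik at 31.1 CPM, 2310079G19Rik at 75.6, Adh6b at 18.9, Alox12 at 25.9, Gdpd2 at 87.5, Gsta2 at 13.4, Krtap13 at 26.8, Mettl7a3 at 319.7, Pi15 at 19.9, Ptger3 at 5.58 and Serpinb7 at 106.1. The others were PKI BCC replicate 3 for 2310057N15Rik (1.47 CPM) and Gpnmb (78.1 CPM), PKI BCC replicate 1 for Alox12 (5.90 CPM), PKI BCC replicate 2 for Scnn1b (9.29 CPM) and SmoM2 BCC replicate 4 for Nav3 (4.89 CPM).

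Of 44 named genes examined, 9 had effects that differed among the 3 models by edgeR's test of the difference. The gap between the highest and lowest log2 fold change was 7.67 for Krt6b, 5.57 for 2610528A11Rik, 3.40 for Clec2g, 2.53 for Atp6v1b1, 2.27 for Scnn1b, 2.22 for Gli2, 1.78 for Gnas, 1.70 for Ptch1 and 1.02 for Smo.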

How the results depend on the processing

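The count of called genes kept within 1.5 times its value under other scaling (5474), no filter (5569), an equal-weight average of the 3 effects (6548), sex as a covariate (5691), the DESeq2 Wald test (5986), limma on the authors' signal (5633 and 5569 for pseudocounts of 1 and 0.1), and without Gnas-eKO (5315) or PKI (4654). Without SmoM2 it was 3337 (1861 higher, 1476 lower). With the replicate number as a block it was 3582, with 1706 lower; counts in the left-out model were then 552 and 397 in SmoM2 and 96 and 3 in Gnas-eKO. Same-numbered libraries correlated by between −0.11 and 0.24, so the numbers showed no pairing. Without the filter on low counts, 29 fallen genes were called in the left-out Gnas-eKO. DESeq2 on the left-out model, chosen after seeing the data, called 766 and 284 in Gnas-eKO, and the cause was not tested. Shares over all genes were not computed for these alternative counts in the left-out model. Genes of similar size numbered 47, 268 and 303 with a limit of 0.3, a limit of 1 and a 1.5-fold minimum.

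Leaving out 1 library gave 4960 to 6050 called genes (2581 to 3041 higher, 2379 to 3029 lower), 1957 to 4140 genes with a difference among models (lowest without PKI Con replicate 3, highest without Gnas-eKO BCC replicate 3) and 89 to 133 genes of similar size. In the left-out model it gave 829 to 1080 risen and 632 to 994 fallen genes in SmoM2, 0 to 807 and 0 to 536 in Gnas-eKO, and 700 to 1011 and 601 to 942 in PKI. Of 90 named genes, 66 kept their side of the threshold and their sign in up to 32 alternatives, and 23 lost the call in at least 1. Gnas changed sign to 0.45 without the Gnas-eKO model, where it was called higher (edgeR adjusted p 0.000438). Its sign also changed, without a call, to 0.0241 without Gnas-eKO BCC replicate 3 and to 0.00093 without replicate 4. Its lowest value without 1 library was −0.17, without SmoM2 Con replicate 3. The cause was not tested beyond its opposite effect in the Gnas-eKO model. With 3 Con libraries per model, intervals of differences between models stayed wide.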
